A study of Mus musculus with 30 samples.

Results

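Cells that divide copy their DNA in S phase and part the copies in mitosis, and each step has its own set of genes. In S phase the MCM helicase opens the helix at origins, primase and the replicative polymerases lay down new strands, a clamp and its loader keep the polymerase on the template, and ribonucleotide reductase, thymidylate synthase and thymidine kinase supply nucleotides. In mitosis, cyclins with their kinases, spindle motors, centromere proteins and checkpoint kinases order the separation of the chromosomes. Most hepatocytes of an adult liver rest outside the cycle, so transcripts of these genes are scarce there and can also come from dividing non-parenchymal or blood-borne cells.

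The set described here holds 45 genes of DNA replication and the cell cycle, of 12225 named genes tested in mouse liver. They were chosen by name with earlier results of these data known, so counts among them are no independent test of the set. They comprise 26 genes of S phase and its nucleotide supply, 16 genes of G2 and mitosis, and 3 others (Stmn1, Ccnd1 and Hmgb2). A probe was assigned to a gene through its RefSeq transcript, which gave 43 genes a probe; no probe was matched to Gins1 or Mki67. A gene was tested where 14 or more of the 30 arrays had its liver signal well above background. That left 41 members, namely 24 S phase, 14 mitotic and 3 other genes, while Ccne2 reached this mark on at most 4 arrays and Aurkb on 2. Bub1 lay on the limit with 14 arrays and Kif11 just inside it with 16, and 7 of the 14 mitotic members were well above background on all 30 arrays, against 20 of the 24 S phase members.

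Liver RNA came from female C57BL/6 mice acquired at 5 to 6 weeks of age. The control animals, whose treatment is labelled none, numbered 16, and 14 animals had received 0.162 mg of Printex 90, a carbon black nanoparticle, by instillation into the trachea as a suspension in saline with lavage fluid of other C57BL/6 mice. Each animal has 1 array, on which its liver RNA carried the dye Cy5 and a universal mouse reference RNA the dye Cy3, with no dye swap; the series text speaks of 6 mice per group, and no time between instillation and sampling is given in the sources used here. Consecutive animal numbers, broken by wide gaps, form 3 runs in each group, with 6, 5 and 5 controls and 4, 5 and 5 exposed animals in runs 1, 2 and 3; what sets the runs apart is not given in the labels, which also pair no exposed run with a control run. The measure throughout is the log ratio, log2 of Cy5 over Cy3. On it, -1 stands for a processed signal at 0.5 times that of the reference. Processing added an offset of 50 to both signals, which compresses the log ratios of dim probes. Values given below as times the control level are ratios on this scale. Levels of different genes cannot be compared on this scale.

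The median Cy5 signal ran from 104 to 196 arbitrary units and the share of probes with Cy5 clearly over background from 42.8% to 79.2%. The 4 arrays of exposed run 1 had medians of 104 to 119.5, and the highest median among the 8 controls on their slides was 118.5. The 9 slides held 2 to 4 arrays, with controls in the first 2 positions and exposed animals in the last 2, so position and group cannot be told apart. In each group, run 1 held only the first of its 2 positions, run 3 only the second, and run 2 both. All 5 hepatocyte markers with a tested probe, Alb, Ttr, Apoa1, Tat and Cyp2e1, were well above background on all 30 arrays.

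The promoters of the S phase and mitotic genes differ in sequence, which is shown first because the class contrast runs through the results. Promoter windows of 300 bases, from 250 before to 50 after the annotated start (RefSeq, build GRCm38.p6), were at hand for 36 of the 45 members, 4 of them with more than 1 window; Mcm4, Ccne2, Gmnn, Gins1, Gins2, Ccna2, Aurkb, Stmn1 and Ccnd1 had no entry. Each window was searched on both strands for the E2F letters TTTGGCGC, TTTCCCGC, TTTGCCGC and TTTCGCGC, matches of which may overlap one another, for TTTGAA (the letters of the cell cycle genes homology region, CHR) and for CCAAT. E2F factors are known as activators of S phase genes, and the CHR with CCAAT boxes is known from genes of G2 and mitosis. A gene counted as holding letters if any of its windows did. The 4 members with more than 1 window, Mcm7, Lig1, Uhrf1 and Fen1, are all S phase genes. Of these, Mcm7, Lig1 and Uhrf1 held the E2F letters, each in 1 window only. The E2F letters stood in 10 of 21 S phase members (47.6%), in 1 of 14 mitotic members (7.14%), Cdk1, and in 2.6% of the 27025 genes with a window. The order was the other way for TTTGAA, found in 3 of 21 S phase members (14.3%), 10 of 14 mitotic members (71.4%) and 20.2% of all genes. CCAAT was in 12 of 21 S phase members (57.1%), 12 of 14 mitotic members (85.7%) and 41.1% of all genes. These are counts of letters in a window and no measure of binding.

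Upstream stretches of 250 bases, ending at the base before the annotated start, show both kinds, in lower case with each matched motif in capitals. Mcm6, a helicase subunit, lies at chr1:128359706-128359955 on the minus strand and holds 3 E2F matches, of which 2 overlap, and 2 CCAAT matches. Rrm1, the large subunit of ribonucleotide reductase, lies at chr7:102441445-102441694 on the plus strand and holds 2 CCAAT matches and none of the E2F letters. Cdc20, the activator of the anaphase-promoting complex, lies at chr4:118437344-118437593 on the minus strand, with 1 TTTGAA and 2 CCAAT matches. Ccnb2, cyclin B2, lies at chr9:70421555-70421804 on the minus strand, with 1 TTTGAA and 3 CCAAT matches.
Mcm6: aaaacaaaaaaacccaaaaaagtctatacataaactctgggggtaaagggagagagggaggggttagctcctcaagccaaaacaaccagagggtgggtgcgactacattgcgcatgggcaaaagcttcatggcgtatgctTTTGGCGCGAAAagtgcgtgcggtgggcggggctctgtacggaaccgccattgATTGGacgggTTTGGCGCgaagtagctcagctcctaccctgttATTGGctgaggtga
Rrm1: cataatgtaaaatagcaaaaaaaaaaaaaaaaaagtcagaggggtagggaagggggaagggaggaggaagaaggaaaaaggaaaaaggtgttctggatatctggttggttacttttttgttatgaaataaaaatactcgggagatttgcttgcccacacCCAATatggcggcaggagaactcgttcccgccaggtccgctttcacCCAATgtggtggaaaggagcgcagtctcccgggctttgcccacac
Cdc20: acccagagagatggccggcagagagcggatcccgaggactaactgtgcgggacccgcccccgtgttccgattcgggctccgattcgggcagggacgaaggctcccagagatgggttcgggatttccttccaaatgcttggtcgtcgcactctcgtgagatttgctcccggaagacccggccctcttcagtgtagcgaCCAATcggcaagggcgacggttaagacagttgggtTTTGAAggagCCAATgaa
Ccnb2: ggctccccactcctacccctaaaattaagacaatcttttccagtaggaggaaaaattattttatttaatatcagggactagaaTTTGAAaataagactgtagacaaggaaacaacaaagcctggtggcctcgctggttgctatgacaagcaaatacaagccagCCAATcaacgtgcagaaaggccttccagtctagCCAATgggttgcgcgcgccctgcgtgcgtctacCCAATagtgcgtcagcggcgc

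The first comparison, all 14 exposed against all 16 control animals, asked whether the exposure moved these genes in the liver. None of the 41 members passed an adjusted p of 0.05 in limma, and 0.0164% of all tested genes did. At an unadjusted p of 0.05 the count was 4 of 41, with 2 S phase, 1 mitotic and 1 other member, and 12.2% of all tested probes were below that mark. The median difference, exposed minus control, was -0.02 on the log2 scale over the S phase members and -0.07 over the mitotic members, against 0.00 (-0.000758) over all tested genes. In a bulk liver sample, fewer cells of a type and less RNA per cell cannot be told apart.

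Gins3, a subunit of the GINS complex that joins the helicase at the fork, came nearest to the threshold. Its log ratio had a lowest, median and highest value of -1.56, -1.39 and -1.07 in the controls and -1.82, -1.60 and -1.36 in the exposed animals. The ranges overlapped, with the exposed median below the lowest control, and the difference was -0.23 ± 0.05 (SE, n = 16 and 14; adjusted p = 0.0863). Rfc4, a subunit of the clamp loader, ran from -2.54 through a median of -2.32 to -2.02 in controls and from -2.95 through -2.46 to -2.13 in exposed animals. Its difference was -0.17 ± 0.07 (adjusted p = 0.321). For Tyms, thymidylate synthase, the controls lay at -2.07, -1.86 and -1.60, with 1 control value missing, and the exposed animals at -2.50, -1.94 and -1.62, a difference of -0.12 ± 0.07 (adjusted p = 0.48). In both genes the lowest animals were exposed ones and the upper ends of the groups lay close together.

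The mitotic members nearest to the threshold were Top2a, Ccnb1 and Ccna2. Top2a, topoisomerase II alpha, had lowest, median and highest log ratios of -3.65, -3.22 and -2.27 in controls and -3.84, -3.44 and -2.88 in exposed animals (difference -0.22 ± 0.11, adjusted p = 0.391). Ccnb1, cyclin B1, ran over -4.38, -3.90 and -2.62 in controls and -4.55, -4.04 and -3.57 in exposed animals (-0.27 ± 0.14, adjusted p = 0.418). Ccna2, cyclin A2, gave -4.30, -3.83 and -3.21 in controls, with 1 value missing, against -4.52, -4.07 and -3.39 (-0.21 ± 0.11, adjusted p = 0.43). The groups overlapped over most of their range in these 3 genes, and the highest values of each belonged to controls.

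The second comparison took the exposed animals by run. Exposed run 1 (animals 176, 177, 179 and 180) stood lower than the mean of the 3 control runs for a large part of the set, while runs 2 and 3 gave no member past the threshold. In run 1, 13 of 41 members passed an adjusted p of 0.05, 12 lower and 1 higher. Among all tested genes 6.08% passed, 4.55% lower and 1.53% higher. By class, 9 of 24 S phase members fell and 1 rose, all 3 other members fell, and 0 of 14 mitotic members passed, with 5 mitotic members at an unadjusted p below 0.05, as were 18.7% of all tested probes. The mitotic count of 0 depended on the processing. It was 2 with the deposited log ratios and 2 with Agilent's processed signals, beside 9 and 12 S phase members that fell. These settings called 1644 and 1983 of the 23607 tested probes, against 1132 in the main fit. Without background correction the mitotic count was 3, beside 9 S phase members and 1789 of all tested probes. Leaving out control 548 or control 600 also gave 3, with 1115 and 1023 of all tested probes called. The mitotic count stayed 0 with median centring, slide as a fixed term and a term for array position. In those fits 0, 6 and 4 S phase members fell, and 174, 427 and 288 of all tested probes were called. The plot of every tested member in run 1 shows the differences with their errors.

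**Figure D1:**
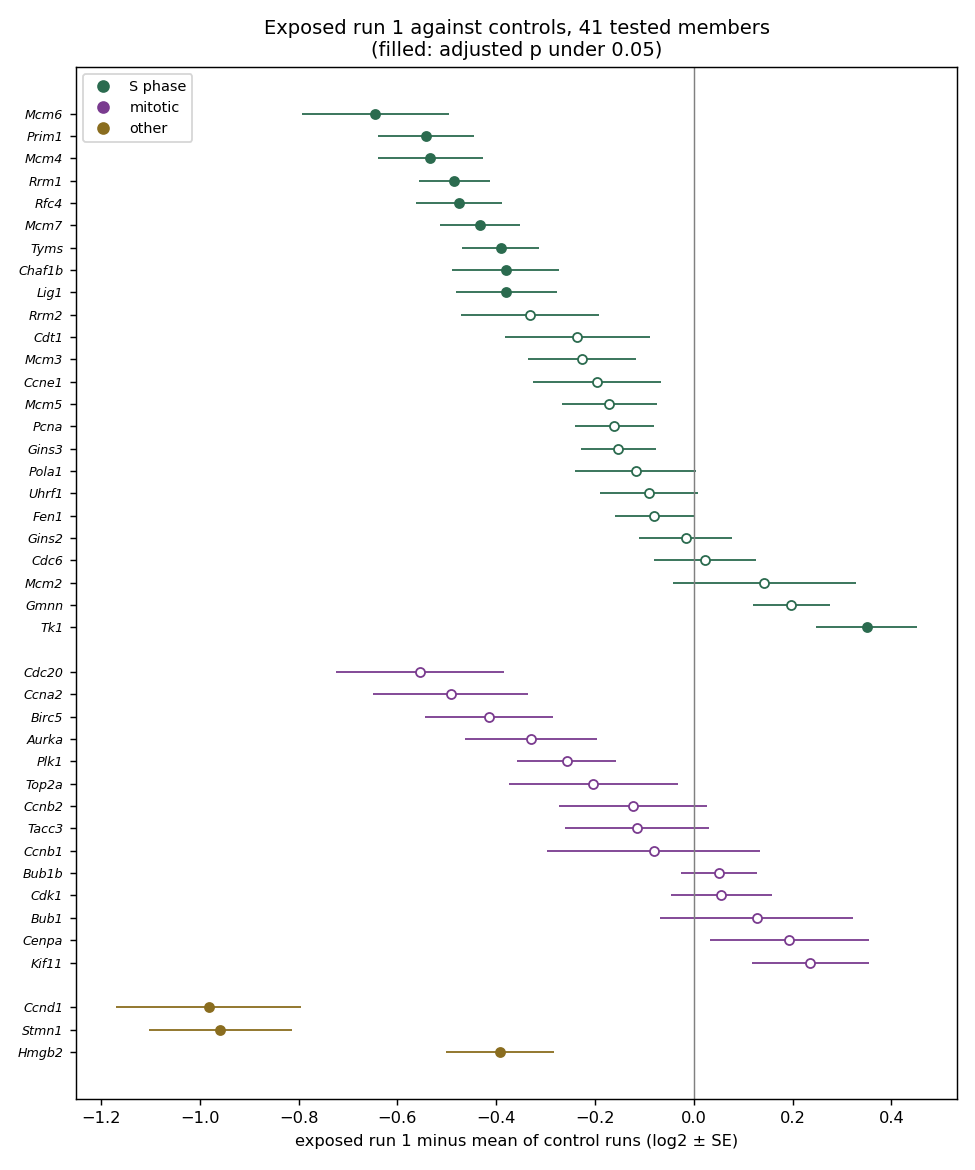
Difference of exposed run 1 (4 mice) from the mean of the 3 control runs (16 mice) for the 41 tested members, on the log2 scale with the SE as bars and members with an adjusted p under 0.05 filled. The 9 S phase members that fell lie between -0.64 and -0.38, Tk1 lies at 0.35, and the mitotic members range from -0.55 to 0.24 with none filled.

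Nucleotide supply showed movement both ways. Rrm1 (chromosome 7) had log ratios of -3.81, -3.68, -3.59 and -3.81 in the 4 animals of run 1, given here and below in the order of the animal numbers. The controls had a lowest, median and highest value of -3.50, -3.22 and -2.99. All 4 animals lay below every control, and also below every animal of runs 2 (-3.23, -3.15, -2.91, -3.06 and -3.10) and 3 (-3.43, -3.47, -3.27, -3.24 and -3.06). The difference from the controls was -0.49 ± 0.07, or 0.714 times their level (adjusted p = 0.000219). Rrm2, the small subunit of the same enzyme, had a difference of -0.33 ± 0.14 and did not pass (adjusted p = 0.184).

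Tyms (chromosome 5) lay at -2.50, -2.12, -2.17 and -2.16 in run 1, below all 15 controls with a value (-2.07, -1.86 and -1.60) and all animals of runs 2 and 3. It fell by 0.39 ± 0.08 (adjusted p = 0.00388). A second Tyms probe fell by 0.26 ± 0.08 (adjusted p = 0.0478). Tk1, thymidine kinase of the salvage pathway (chromosome 11), went the other way, with -0.21, -0.19, -0.63 and -0.37 in run 1 against a control range of -1.05 to -0.24 with a median of -0.64. It rose by 0.35 ± 0.10 (adjusted p = 0.044), with a wide overlap, since 8 of 16 controls were at or above the lowest animal of run 1. Control run 1 ranged from -0.68 to -0.24, and against that run alone the difference of Tk1 was 0.08 (adjusted p = 0.855). The call of Tk1 was lost without any 1 of 11 animals, namely exposed 176, 177, 180 or 214 or control 550, 552, 573, 575, 596, 599 or 600, with differences of 0.30 to 0.36 and adjusted p values of 0.0504 to 0.189.

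Of the 6 subunits of the MCM helicase, 3 fell in run 1. Mcm4 (chromosome 16) had -4.43, -4.09, -3.82 and -3.94 against controls at -3.78, -3.51 and -3.25, with no overlap, and fell by 0.53 ± 0.11 (adjusted p = 0.00328). Mcm7 (chromosome 5) had -3.51, -3.40, -3.33 and -3.17 against -3.26, -2.91 and -2.59; it fell by 0.43 ± 0.08 (adjusted p = 0.00182), and 1 control lay at or below the highest animal of run 1. Mcm6 (chromosome 1) had -4.74, -3.87, -3.88 and -4.14 against -3.93, -3.44 and -2.82, and fell by 0.64 ± 0.15 (adjusted p = 0.0111), with 2 controls inside the range of run 1; without animal 176 the difference was -0.45 (adjusted p = 0.117). The remaining subunits did not pass: Mcm3 differed by -0.23 ± 0.11, Mcm5 by -0.17 ± 0.10 and Mcm2 by 0.14 ± 0.19. For Mcm2, animal 176 differed from the controls of its slide by 1.55, and the other 3 animals by -0.36, -0.25 and -0.17.

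Primase and the clamp loader were among the members furthest from the controls. Prim1, the catalytic primase subunit (chromosome 10), had -3.61, -3.24, -3.38 and -3.69 in run 1 and -3.39, -2.90 and -2.55 in the controls. It fell by 0.54 ± 0.10, to 0.687 times the control level (adjusted p = 0.00147), with 1 control, animal 547, inside the range of run 1. Run 2 stood at the other end of the scale, with -2.75, -2.57, -2.53, -2.55 and -2.86, and run 3 between them, with -2.92, -3.10, -2.90, -2.90 and -2.67. Rfc4 (chromosome 16) had -2.68, -2.71, -2.95 and -2.89 against controls from -2.54 to -2.02 with a median of -2.32; the groups did not overlap and it fell by 0.48 ± 0.09 (adjusted p = 0.00168). Animal 215 of run 3, at -2.77, also lay in the range of run 1. Pola1, the catalytic subunit of the polymerase that primase works with, differed by -0.12 ± 0.12, and Pcna, the clamp itself, by -0.16 ± 0.08, and neither passed.

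Lig1, the ligase that joins Okazaki fragments (chromosome 7), had -3.55, -3.28, -3.36 and -3.44 in run 1 and -3.35, -3.01 and -2.70 in the controls; it fell by 0.38 ± 0.10 (adjusted p = 0.0292). Chaf1b, a subunit of the chromatin assembly factor that places histones on new DNA (chromosome 16), had -3.67, -3.34, -3.29 and -3.30 against -3.38, -3.01 and -2.43, and fell by 0.38 ± 0.11 (adjusted p = 0.0373). In both genes the highest animal of run 1 overlapped the lowest controls, 2 controls for Lig1 and 1 for Chaf1b. Neither call held without each animal: that of Lig1 was lost without any 1 of the 4 animals of run 1 (-0.41 to -0.33, adjusted p = 0.0566 to 0.119). That of Chaf1b was lost without exposed 176, 177 or 180 or control 550, 573 or 599 (-0.41 to -0.29, adjusted p = 0.0515 to 0.211). Fen1, the flap nuclease that works with the ligase, differed by -0.08 ± 0.08. The licensing factors did not pass either, with Cdc6 at 0.02 ± 0.10, Cdt1 at -0.24 ± 0.15 and Gmnn, the inhibitor of Cdt1, at 0.20 ± 0.08 (adjusted p = 0.147).

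The 3 members outside both classes all fell. Stmn1, which destabilises microtubules (chromosome 4), had -5.14, -4.93, -4.72 and -4.64 in run 1 against controls from -4.32 to -3.22 with a median of -3.87, and no overlap. It fell by 0.96 ± 0.14, to 0.515 times the control level (adjusted p = 0.000239). The animals of run 2 (-4.23, -3.85, -3.54, -3.63 and -3.92) and run 3 (-4.21, -4.36, -4.05, -4.00 and -3.78) overlapped the controls. A second probe of Stmn1 did not pass, with -0.21 ± 0.07 (adjusted p = 0.0876), so the size of the Stmn1 difference depends on the probe.

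Ccnd1, cyclin D1, which drives entry into the cycle (chromosome 7), had -2.04, -0.65, -0.87 and -1.22 in run 1, against a control range of -1.18 to 0.28 with a median of -0.04. It fell by 0.98 ± 0.19 (adjusted p = 0.00238), and 5 of 16 controls were at or below the highest animal of run 1. Control run 1 was itself low, with -0.73, -0.93, -0.04, -0.69, -1.18 and -0.57, and against it alone the difference was -0.50 (adjusted p = 0.349). Hmgb2, a chromatin protein of dividing cells (chromosome 8), had -4.44, -4.11, -3.94 and -3.92 against -3.93, -3.71 and -3.13, and fell by 0.39 ± 0.11 (adjusted p = 0.0339). The call was lost without exposed 176 (-0.27, adjusted p = 0.233) or 177 (-0.40, adjusted p = 0.094), and a second probe gave -0.23 ± 0.11 (adjusted p = 0.25).

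**Figure D2:**
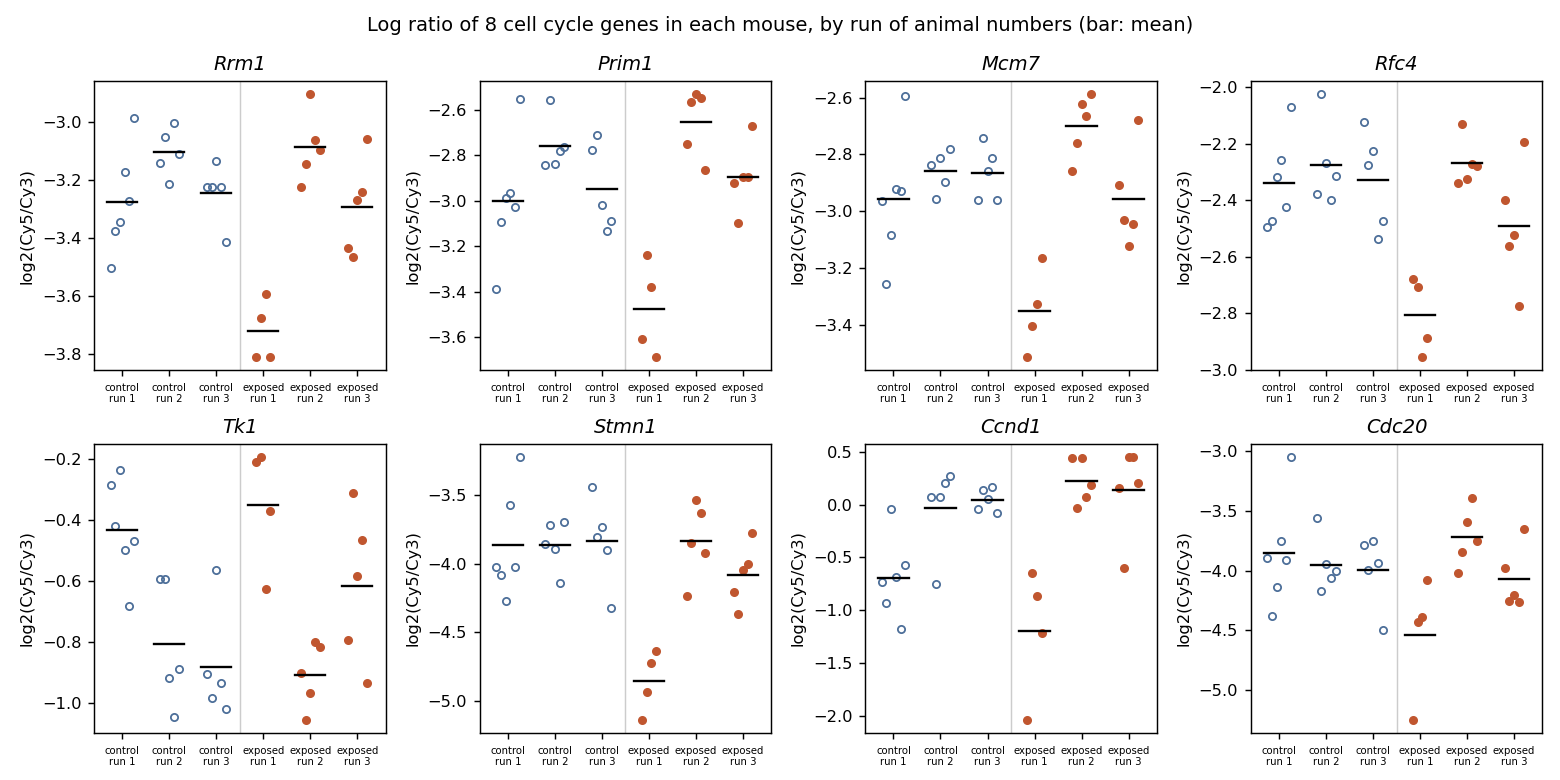
Log ratio, log2(Cy5/Cy3), of 8 members in each mouse, with open points for the 16 controls, filled points for the 14 exposed animals and a bar at the mean of each run. The 4 animals of exposed run 1 lie below every control for Rrm1, Rfc4 and Stmn1, while Tk1 is high and Ccnd1 low in control run 1 as well.

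Among the mitotic members, Cdc20 came nearest. Its log ratios in run 1 were -5.25, -4.43, -4.39 and -4.08, against controls at -4.50, -3.94 and -3.05, and the difference was -0.55 ± 0.17 (adjusted p = 0.0564). Birc5, survivin, a subunit of the chromosomal passenger complex, had -4.86, -4.18, -4.27 and -4.13 against -4.33, -3.94 and -3.27 (-0.42 ± 0.13, adjusted p = 0.0602). Ccna2 had -4.05, -4.39, -4.52 and -4.42 against -4.30, -3.83 and -3.21 (-0.49 ± 0.16, adjusted p = 0.0683). In Cdc20 and Birc5 animal 176 lay below every control and the other 3 lay within the control range, whereas in Ccna2 animal 176 was the highest of the 4. Kif11, a spindle motor, and Cenpa, the centromeric histone, had positive differences of 0.24 ± 0.12 and 0.19 ± 0.16, which did not pass.

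The difference between the classes was not tested. The median difference of run 1 from the controls was -0.21 over the 24 S phase members and -0.12 over the 14 mitotic members, against -0.04 over all tested genes. The errors were unequal, with a median SE of 0.10 in the S phase members and 0.15 in the mitotic members. Signal strength moved with the contrast as well. Among members well above background on all 30 arrays the medians were -0.28 (20 S phase) and -0.33 (7 mitotic), and among the dimmer members they were -0.03 (4) and 0.05 (7). Over all tested genes the medians were -0.05 for 9515 bright genes and 0.00 (-0.00164) for 2710 dimmer ones, and 5.74% and 0.369% of them were called lower. When only probes well above background on all arrays were fitted, 2 of 7 mitotic members fell beside 9 of 20 S phase members. So the order of the 2 class medians turned with the brightness filter, and the part of signal strength in the count of 0 mitotic members was not tested further.

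**Figure D3:**
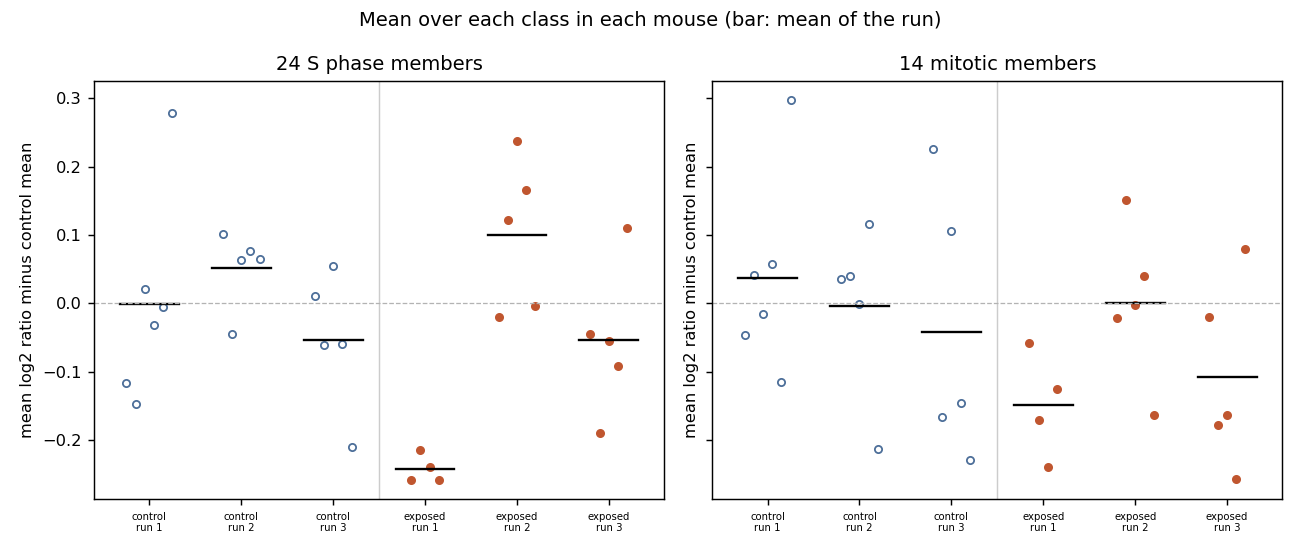
Mean log ratio over the 24 S phase members (left) and the 14 mitotic members (right) in each mouse, after subtracting each gene's mean over the 16 controls, with a bar at the mean of each run. In exposed run 1 the S phase means lie between -0.26 and -0.21, below every control, and the mitotic means lie between -0.24 and -0.06, within the control range of -0.23 to 0.30 except for 1 animal. Over only the members well above background on all arrays, not drawn here, animal 177 lay above control 600 on the S phase mean.

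Per animal, the mean over the S phase members in run 1, relative to the controls, was -0.26, -0.21, -0.24 and -0.26. The lowest, median and highest control stood at -0.21, 0.00 (0.00294) and 0.28, so the 4 animals lay just below the lowest control, animal 600. The mitotic mean was -0.06, -0.17, -0.24 and -0.12 in the same animals and -0.23, 0.02 and 0.30 in the controls. Only animal 179 lay below all controls on the mitotic mean. Both orders changed over the members well above background on all arrays. There the S phase means of run 1 were -0.393, -0.211, -0.253 and -0.284, with control 600 at -0.223, so animal 177 lay above it. The mitotic means were -0.584, -0.254, -0.362 and -0.120, and only animal 176 lay below the lowest control, animal 548 (-0.362).

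Slides were compared within themselves because the arrays of run 1 lay on 4 of the dimmer slides. Against the controls of its own slide, all 4 animals of run 1 were lower for 11 of 24 S phase, 5 of 14 mitotic and 3 of 3 other members; over all tested genes the share was 14.4%. The 4 within-slide differences of Rrm1 were -0.52, -0.39, -0.29 and -0.45, and those of Stmn1 were -1.19, -0.85, -0.96 and -0.68. Run 1 lay below every control animal in 5 members (Rrm1, Tyms, Mcm4, Rfc4 and Stmn1), and the share over all tested genes was 0.622%. With slide as a fixed term 8 members passed, and with the position within a group's pair as a term 5 passed. With arrays centred on their median in place of loess 1 member, Ccnd1, passed, and the S phase and mitotic medians were then -0.13 and -0.05, while the median of all probes moved from -0.01 to 0.04. Without animal 176, 8 members passed; these were 6 S phase and 2 other members. The share of all tested probes called moved as well, from 4.8% to 1.81% with slide as a fixed term, 1.22% with the position term, 0.737% with median centring and 2.27% without animal 176.

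Against control run 1 alone, whose animals shared the first position of their pair with exposed run 1, 3 members passed and 0.303% of all tested genes did. Stmn1 (-0.95, adjusted p = 0.0119), Rrm1 (-0.43, adjusted p = 0.0213) and Rfc4 (-0.46, adjusted p = 0.0383) were these 3. The S phase median was -0.22 and the mitotic median -0.24 in that contrast, so the 2 classes were alike in size there, with no test of their difference.

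In exposed run 2 no member passed, and 0.00818% of all tested genes did; 6 of 41 members had an unadjusted p below 0.05 in limma, against 10.3% of all tested probes. The S phase median was 0.10 and 3 of 24 differences were negative. Prim1, listed above, differed by 0.26 ± 0.09 (adjusted p = 0.29). Mcm3 had -2.55, -2.39, -2.03, -2.16 and -2.52 against controls at -3.00, -2.63 and -2.18 (0.24 ± 0.10, adjusted p = 0.404), and Gins3 had -1.57, -1.57, -1.56, -1.53 and -1.75 (-0.20 ± 0.07, adjusted p = 0.298). Among mitotic members, whose median was 0.03, Ccnb2 had -2.99, -2.62, -2.68, -2.53 and -2.88 against -3.93, -2.95 and -2.49 (0.24 ± 0.14, adjusted p = 0.565). Ccnb1 differed by -0.30 ± 0.20 and Plk1, a mitotic kinase, by 0.13 ± 0.09. All of these ranges overlapped the controls.

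In exposed run 3 no member passed, 0.139% of all tested genes did, and 2 of 41 members had an unadjusted p below 0.05 in limma, against 13.1% of all tested probes. Gins3 had -1.49, -1.77, -1.77, -1.82 and -1.68, so that 4 of 5 animals lay below the lowest control at -1.56, and it differed by -0.31 ± 0.07 (adjusted p = 0.0625). Gins3 was negative in all 3 exposed runs, with -0.15, -0.20 and -0.31; these values share their controls. Rfc4 differed by -0.17 ± 0.08 (adjusted p = 0.368) and Mcm4 by -0.17 ± 0.10 (adjusted p = 0.478). The mitotic members with the smallest p were Ccnb1 at -0.39 ± 0.20, Top2a at -0.29 ± 0.16 and Ccna2 at -0.23 ± 0.14, and 12 of 14 mitotic differences were negative with a median of -0.06.

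**Figure D4:**
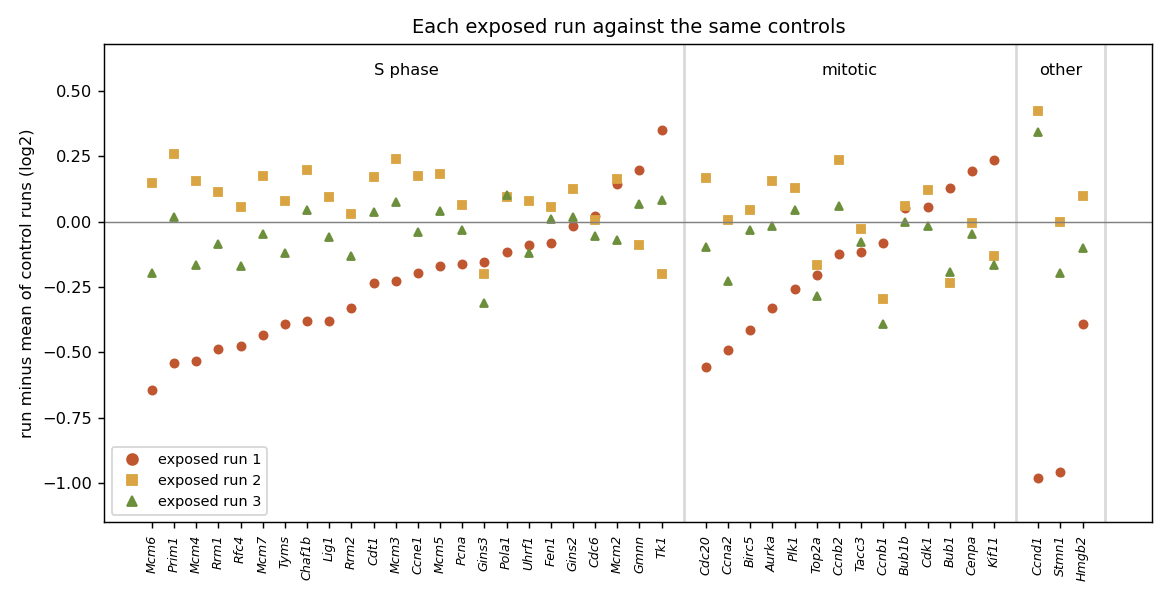
Difference of each exposed run from the mean of the 3 control runs (log2) for the 41 tested members, sorted within each class by run 1; the 3 runs share their controls. Run 1 lies lowest for the members at the left of the S phase panel, where run 2 lies above 0, while Gins3 and Ccnb1 are negative in all 3 runs.

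The exposed runs were also compared with one another, without the controls as a reference. In an F test among the 3 runs 11 of 41 members passed, and 5.19% of all tested genes did. These were 9 S phase members (Rrm1, Prim1, Mcm7, Mcm4, Rfc4, Tyms, Chaf1b, Tk1 and Mcm6) with Ccnd1 and Stmn1. No mitotic member of 14 passed, 6 had an unadjusted p below 0.05 (19.5% of all tested probes did), and the smallest adjusted p values were those of Cdc20 (0.0901), Plk1 (0.114) and Birc5 (0.148). Leaving out animal 176 brought the count of members to 7, and the share of all genes in that fit is not given here.

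Run 1 against run 2 gave 15 members past the threshold, against 7.65% of all tested genes. Of these members 14 were lower in run 1, against 6.15% of all genes, and Tk1 was higher, against 1.5% of all genes, by 0.55 ± 0.13 (adjusted p = 0.00942). Prim1 had the smallest p of the S phase members beside Rrm1, with -0.80 ± 0.12 and -0.60 ± 0.09 (both adjusted p = 0.000367), and Cdc20 was the 1 mitotic member to pass (-0.72 ± 0.21, adjusted p = 0.0364). Only animal 193 of run 2, with a median Cy5 of 116, shared a slide with an animal of run 1 (medians of 104 to 119.5). The other animals of run 2 had medians of 131 to 155, so run and slide brightness were largely confounded in this contrast. Run 1 against run 3 gave 5 members, against 2.29% of all genes (1.57% lower and 0.72% higher), all of them lower in run 1, namely Ccnd1 (-1.33 ± 0.22), Prim1 (-0.56 ± 0.12), Rrm1 (-0.40 ± 0.09), Stmn1 (-0.76 ± 0.17) and Mcm7 (-0.39 ± 0.10). Run 2 against run 3 gave none, against 0.0245% of all genes, with 7 of 24 S phase members at an unadjusted p below 0.05, against 7.17% of all tested probes.

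The same F test among the 3 control runs shows how far the members vary without exposure. None of 41 passed, 0.106% of all tested genes did, and 3 of 41 members had an unadjusted p below 0.05 in limma, against 7.03% of all tested probes. Control runs 1 and 3 lay in different positions of their pair, so run and position cannot be told apart between them. Tk1 and Ccnd1 had the smallest p (adjusted p = 0.247 and 0.309). Tk1 lay at -0.29, -0.42, -0.24, -0.50, -0.68 and -0.47 in control run 1, at -0.59, -0.59, -0.92, -1.05 and -0.89 in run 2 and at -0.91, -0.98, -0.56, -0.93 and -1.02 in run 3. Ccnd1 lay at 0.07, -0.76, 0.07, 0.20 and 0.28 in control run 2 and at -0.04, 0.14, 0.05, 0.17 and -0.08 in run 3; apart from control 572, at -0.76, these values lay above 5 of the 6 animals of control run 1. Gmnn had means of -1.95, -2.03 and -2.22 in the 3 control runs (adjusted p = 0.591). The mitotic members with the smallest p were Kif11, Aurka and Tacc3, with adjusted p values of 0.881, 0.897 and 0.908.

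Other genes of the same pathways were read from lists of regulators, replication and mitosis. In run 1 against the controls, where 4.55% of all tested genes were called lower and 1.53% higher, 3 of 26 further replication genes fell, Slbp (-0.40 ± 0.11), which binds histone mRNA, Atad2 (-0.29 ± 0.08) and Dut (-0.27 ± 0.08), which removes dUTP; 21 of 26 were negative, with a median of -0.15. Of 25 further mitotic genes 3 fell, Pttg1 (-0.29 ± 0.06), which is securin, Kif20a (-0.55 ± 0.15) and Incenp (-0.54 ± 0.15); 21 of 25 were negative, with a median of -0.19. So mitotic genes outside the 14 members did pass in run 1. Of 22 regulators, which include the E2F and pocket protein genes, 1 passed, Myc, which rose by 0.95 ± 0.19 (adjusted p = 0.00334), and the median was -0.01. In exposed against control, none of these genes passed in limma, with 5, 6 and 5 at an unadjusted p below 0.05 in the replication (26), mitosis (25) and regulator (22) lists, against 12.2% of all tested probes.

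Markers of cells that could carry cell cycle transcripts into a liver sample were read beside run 1. The mean over 5 of 6 T and NK cell markers lay between -0.33 and -0.20 in run 1 and between -0.25 and 0.56 in controls, and 0 of 5 passed. The mean over 3 of 5 B cell markers lay between -0.33 and -0.11 in run 1 and between -0.23 and 0.33 in controls, with 0 of 3 past the threshold. For 7 Kupffer cell markers the ranges were -0.75 to 0.01 and -0.74 to 0.60, with 0 of 7 past the threshold, for 5 of 8 erythroid markers -0.23 to 0.22 and -0.45 to 0.54, and for 3 of 9 neutrophil and myeloid precursor markers 0.11 to 0.51 and -0.47 to 0.46. Endothelial markers (5) ranged from -0.79 to 0.11 and from -0.69 to 0.46. Single markers fell in 3 lists: Ttr among 5 hepatocyte markers (-1.14 ± 0.25), Spp1 among 5 cholangiocyte markers (-0.59 ± 0.17) and Col1a1 among 5 stellate markers (-0.61 ± 0.18). The cholangiocyte mean was -0.46 to -0.20 in run 1 and -0.22 to 0.32 in controls. Every tested marker was negative in run 1 for Kupffer (median difference -0.34), cholangiocyte (-0.26), T and NK (-0.21), endothelial (-0.16) and B cells (-0.16). Negative markers numbered 4 of 5 in the erythroid, 3 of 5 in the hepatocyte, 2 of 5 in the stellate and 1 of 3 in the neutrophil list. The median over all tested genes was -0.04. The part of any of these cell types in the lower S phase values was not tested.

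Promoter letters were finally set beside the response of run 1. Of the 12 members that fell, 9 had a promoter window and 3 of these 9 (33.3%) held the E2F letters, Mcm6, Mcm7 and Lig1. Of the 29 tested members that did not fall, 26 had a window and 8 (30.8%) held them. TTTGAA stood in 1 of 9 (11.1%) and 12 of 26 (46.2%). None of the 12 that fell was mitotic, while the 29 included all 14 tested mitotic members. Response and class are therefore mixed in both pairs of shares, and the shares within a class are not given here. The windows of Rrm1, Prim1, Rfc4, Tyms, Chaf1b and Tk1 held none of these E2F letters, which says nothing of the factors that act there.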

How the data were processed

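The deposited scanner files give the intensity of each spot in both dyes, in arbitrary units, which the authors read with Agilent Feature Extraction 10.7.3.1 (25 arrays) or 10.1.1.1 (5), per the file headers. The deposited value table holds log2 ratios of Cy5 over Cy3: all 30 columns correlated most with the array they are named for (r from 0.996 to 0.999 across 15470 bright spots).

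Here median foreground intensities were corrected by normexp (offset 50) and normalised by loess within arrays, outlier spots were set missing, and spots of a probe averaged (R 4.3.3 with limma 3.58.1). Of the probes on the array, 23607 had Cy5 well above background on at least 14 arrays; a gene was represented by its brightest tested probe. limma fitted 2 group means or 6 run means with slide as a random block (correlations 0.159 and 0.147) and Benjamini-Hochberg adjustment over all tested probes, with a threshold of 0.05. The reference for each exposed run was the mean of the 3 control run means. The steps were tested on simulated data. Samples were grouped by the treatment label and runs by gaps of more than 10 in the animal number. The members and lists were chosen with earlier results of these data known. Full values were to be given for at most 12 members past the threshold by smallest p and, in each comparison, for 3 S phase and 3 mitotic members with the smallest p. The design is older than the genome build used for names, so probes are not placed on it. Alternatives covered background correction, normalisation, filters, blocks, channels and each replicate left out. Precision is limited by the number of arrays. Same-numbered runs carry no pairing, and replicate numbers are animal numbers.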

Additional observations from a re-analysis of the deposited data

Results flagged for a closer look

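Among 132 sets of values, each 1 member in 1 run, 10 held a sample far from the others; chance flags about 1 in 20 such sets. The lowest of their run were Ccnd1 in control 572 (-0.76) and exposed 213 (-0.60), Tyms (-2.50) and Chaf1b (-3.67) in exposed 176, and Gins3 in exposed 197 (-1.75). The highest of their run were Prim1 in control 572 (-2.56), Mcm4 in exposed 195 (-3.01), Hmgb2 in control 552 (-3.13), Tk1 in control 598 (-0.56) and Top2a in control 548 (-2.27). All are log2 ratios.

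The contrast with the controls differed between the 3 exposed runs in 11 members by limma's F test. The adjusted p was 0.000864 for Rrm1, 0.000913 for both Prim1 and Ccnd1, 0.00194 for Mcm7, 0.00408 for Stmn1 and 0.00663 for Mcm4. It was 0.011 for Rfc4, 0.0122 for Tyms, 0.0229 for Chaf1b, 0.0266 for Tk1 and 0.0294 for Mcm6.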

How the results depend on the processing

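No member passed in exposed against control except 1 with array weights and 1 with 6 run means, in each case Gins3 (adjusted p = 0.028 and 0.0483). The 13 members past the threshold in exposed run 1 became 1 with median centring, 8 with slide as a fixed block, 5 with an array position term and 3 against the same-numbered control run. The 11 among the exposed runs became 1, 3 and 4 with the first 3 of these settings and 5 with the Cy5 channel alone. The share of all probes passing the F test in these settings is not given here. For run 1 against the controls the share of all tested probes called fell from 4.8% to 0.737%, 1.81% and 1.22% with the first 3. In run 3, 1 member passed with array weights. The S phase median minus the mitotic median in run 1 was -0.0919, and 0.112 with Agilent's processed signals, 0.0426 with probes well above background on all arrays, 0.045 over such members in the unchanged fit (chosen after seeing the data) and 0.0197 with the position term. Leaving out 1 animal at a time gave 0 to 1 members in exposed against control, 8 to 16 in run 1, 0 in run 2, 0 to 1 in run 3, 7 to 13 among the exposed runs and 0 among the control runs, and class differences of -0.209 to -0.0697. Exposed 176 gave the lowest counts of run 1 (8) and of the exposed runs (7). Exposed 179 gave the class difference of -0.209. The single member of exposed against control appeared without control 573 or exposed 176, and that of run 3 without control 549, 552, 573 or 600 or exposed 176. Tyms in exposed against control turned to 0.0163 with Cy5 alone (adjusted p = 0.969), and Gins3 in run 2 to 0.0131 with processed signals (adjusted p = 0.99). The cause was not tested for any of these. No paired analysis was possible because the replicate numbers, which are animal numbers, are not shared between the groups; slide was the block instead. Signal over background was dim for 7 of 14 mitotic and 4 of 24 S phase members on at least 1 array. In run 1 the call was lost in 18 of 46 settings for Tk1, 12 of 46 for Chaf1b, 11 of 47 for Hmgb2 and 9 of 46 for Lig1, and in 1 to 5 for each of the other 9 members. Mitotic members gained a call in run 1 in some settings, Cdc20 in 9 of 46, Ccna2 in 7 of 46 and Birc5 in 5 of 46.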
